A study of Mus musculus with 2 samples.

Results

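The probe sets described here are those that the array's annotation ties to more than 1 gene, so that a single signal may come from several transcripts. Of 45101 probe sets on the array, 932 named several genes. The 568 members were selected on their signal: the mean over both arrays had to reach 62.3, the median of that mean over all probe sets other than controls. The other 364 fell below this minimum. The ratio between the pools played no part in the choice, but the mean signal did, so signal levels are given as a description. Just inside the minimum stood 1430852_at (Nme9 and 1600029I14Rik), 1452357_at (Septin5 and Gp1bb) and 1425012_at (Gng5-ps and Gng5), with mean signals of 62.7, 63.4 and 63.5. Just outside it stood 1430172_a_at (Cyp4f37 and Cyp4f16), 1456047_at (Gm28042 and Pla2g4b) and 1421682_a_at (Gm3448, Gm3417 and Tcte3), with 62.2, 61.6 and 61.4.

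The study measured RNA of regulatory T (Treg) cells, which hold back the responses of other immune cells, from mice lacking the microRNA miR-125a and from their wild-type littermates. Splenic CD4+CD25hi cells of mice aged 6 to 8 weeks were sorted after magnetic enrichment of CD4+ T cells, and RNA from different mice of a genotype was pooled. There was 1 pool and 1 array per genotype, called the wild-type and the knockout pool. The sources used here give neither the number of mice nor how the miR-125a allele was made. With 1 array each there is no replicate spread, no test and no p-value: every difference below is between these pools. In pooled sorted cells, fewer cells of a type and less RNA per cell cannot be told apart.

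A short-oligonucleotide array reads each transcript through a set of short probes, and an annotation can tie a probe set to several genes when its probes may match more than 1 of them. That can happen with tandem gene copies that have kept nearly the same sequence, with processed pseudogenes copied from an mRNA into other chromosomes, with genes that share exons or overlap, and with small RNAs that lie inside a host transcript. Such a probe set may report a mixture. The probe sequences were not used here, so which of the named genes a member's probes match was not checked, and which of them supplied the signal is not known. Members are therefore named by probe set with every gene listed, and the roles given are those of the genes and not of the signal.

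How alike named genes can be before their start sites is shown here for 5 pairs whose members differed between the pools. The 120 bases before each start are from RefSeq on GRCm38.p6, 5' to 3'. They are not part of the transcript from that start, so they do not show how alike the transcripts or probes are. Capitals mark bases with no identical partner in the alignment of the pair, so lower case is shared. Gzmd and Gzme are neighbours and share 114 of 120 bases.
Gzmd, chr14:56132594-56132713, minus strand: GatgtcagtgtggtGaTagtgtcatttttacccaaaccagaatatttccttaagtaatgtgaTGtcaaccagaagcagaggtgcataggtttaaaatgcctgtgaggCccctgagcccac
Gzme, chr14:56120626-56120745, minus strand: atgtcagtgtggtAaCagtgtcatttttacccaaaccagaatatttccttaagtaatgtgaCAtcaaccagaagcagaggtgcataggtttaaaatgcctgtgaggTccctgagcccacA
The alpha-globin copies Hba-a1 and Hba-a2 share 117 of 120 bases, and the capitals lie at the window's ends, where the copies are offset by 3 bases.
Hba-a1, chr11:32283552-32283671, plus strand: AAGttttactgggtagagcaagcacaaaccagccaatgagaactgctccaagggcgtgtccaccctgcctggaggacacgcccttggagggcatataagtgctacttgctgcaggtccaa
Hba-a2, chr11:32296372-32296491, plus strand: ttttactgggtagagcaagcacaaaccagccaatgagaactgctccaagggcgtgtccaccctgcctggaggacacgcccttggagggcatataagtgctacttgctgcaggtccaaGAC
Sprr2a1 and Sprr2a2 are identical over all 120 bases.
Sprr2a1, chr3:92215715-92215834, plus strand: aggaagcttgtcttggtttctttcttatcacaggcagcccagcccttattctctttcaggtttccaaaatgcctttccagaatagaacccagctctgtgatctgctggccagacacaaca
Sprr2a2, chr3:92250527-92250646, plus strand: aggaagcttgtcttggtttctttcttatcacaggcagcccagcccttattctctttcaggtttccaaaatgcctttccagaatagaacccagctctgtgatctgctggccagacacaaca
Il22 and Iltifb share 78 of 120 bases, most of them in 1 stretch.
Il22, chr10:118204844-118204963, plus strand: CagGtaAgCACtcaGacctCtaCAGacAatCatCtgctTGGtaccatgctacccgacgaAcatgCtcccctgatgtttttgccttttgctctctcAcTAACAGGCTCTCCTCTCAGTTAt
Iltifb, chr10:118295039-118295158, minus strand: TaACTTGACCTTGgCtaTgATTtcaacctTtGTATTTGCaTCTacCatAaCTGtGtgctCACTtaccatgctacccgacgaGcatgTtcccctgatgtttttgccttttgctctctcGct
U2af1l4 and Igflr1 lie side by side but are unrelated genes, and share 62 of 120 bases.
U2af1l4, chr7:30563220-30563339, plus strand: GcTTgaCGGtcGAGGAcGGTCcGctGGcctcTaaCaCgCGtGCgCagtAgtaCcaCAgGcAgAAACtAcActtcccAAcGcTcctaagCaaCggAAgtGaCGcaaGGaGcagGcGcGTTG
Igflr1, chr7:30565307-30565426, plus strand: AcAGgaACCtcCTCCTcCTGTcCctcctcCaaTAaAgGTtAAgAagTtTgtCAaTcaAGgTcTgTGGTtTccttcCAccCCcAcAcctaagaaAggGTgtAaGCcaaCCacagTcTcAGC

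Motifs were searched on both strands as TATAAN, where N is any base, and as CCAAT; the motifs were chosen after these sequences were seen and do not overlap each other. Both were found in the windows of Hba-a1 and Hba-a2, and CCAAT also in that of Igflr1. Of 27025 promoters, 12.3% held TATAAN and 22.1% CCAAT in a window of the same length. Over the longer windows of 300 bases, from 250 before to 50 after the start, 558 pairs of genes named together by a member could be compared. Neighbouring genes were at least 80% identical in 67 of 198 pairs, and neighbours with the same name stem in 22 of 41, with a median identity of 84.7%. Genes on different chromosomes reached that in 0 of 64 pairs, with a median of 48.3% and a maximum of 60.0%. Of the pairs compared, 5 held a gene with a pseudogene name, and these were not alike. H2-T-ps and its neighbour H2-T23 were 91.0% identical. On different chromosomes, Gmfg-ps and Gmfg were 46.7% identical, and Rpl31-ps12 and Rpl31 48.3%. Most of each window lies before the start site, so low identity there does not show that the transcripts differ.

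The members named 885 different genes in 371 combinations, and 427 members named 2 genes. In the RefSeq gene table of GRCm38.p6, which held 846 of these genes, 295 members named genes on different chromosomes, 133 named neighbouring genes, no more than 5 positions apart in the order of protein-coding genes, 61 named overlapping genes and 36 named genes further apart on 1 chromosome. For 43 the place was not determined. By kind, 280 members joined a gene to pseudogene copies, 227 named protein-coding genes alone, 17 included a long noncoding RNA, 10 a microRNA or small nucleolar RNA and 3 segments of antigen receptor genes, and 31 were of other or unmatched kinds. Of the 295 members spread over different chromosomes, 237 joined a gene to pseudogene copies. Of the 133 neighbouring ones, 100 named protein-coding genes alone. Identifiers ending in _x_at, which the array maker gives to probe sets with probes that can match other transcripts, made up 18.5% of the members and 6.65% of all 22519 probe sets past the minimum. Those ending in _s_at, shared by several transcripts, made up 15.5% and 6.54%.

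The log2 ratio of a probe set is log2 of (knockout signal + 16.3) over (wild-type signal + 16.3), where 16.3 is the 25th percentile of both arrays' signals, and folds are on that scale, which understates those of dim probe sets. At 2-fold or more, 17 members were higher and 12 lower in the knockout pool, with 539 in between. Together that is 5.11% of the members, beside 2.58% of all probe sets past the minimum. Both shares count probe sets: the 29 members at 2-fold held 26 combinations of genes, so some genes were counted more than once. Higher ratios made up 1.04% of all probe sets and lower ones 1.54%. The gap was seen at low and middle signal. With a mean signal under 200, 12 of 106 members reached 2-fold (11.3%, beside 4.77% of all probe sets there). Between 200 and 2000 it was 15 of 199 (7.54%, beside 1.93%). At 2000 or more, where 263 members lay, it was 2 of them (0.76%, beside 0.67%). Of the 29 members at 2-fold, 5 had a signal under the minimum in 1 pool and passed it through the other. They were 1450618_a_at, 1421683_at and 1447377_at among the higher, and 1424762_at and 1430852_at among the lower. These had to differ, though by little where the lower signal lay near the minimum.

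**Figure D1:**
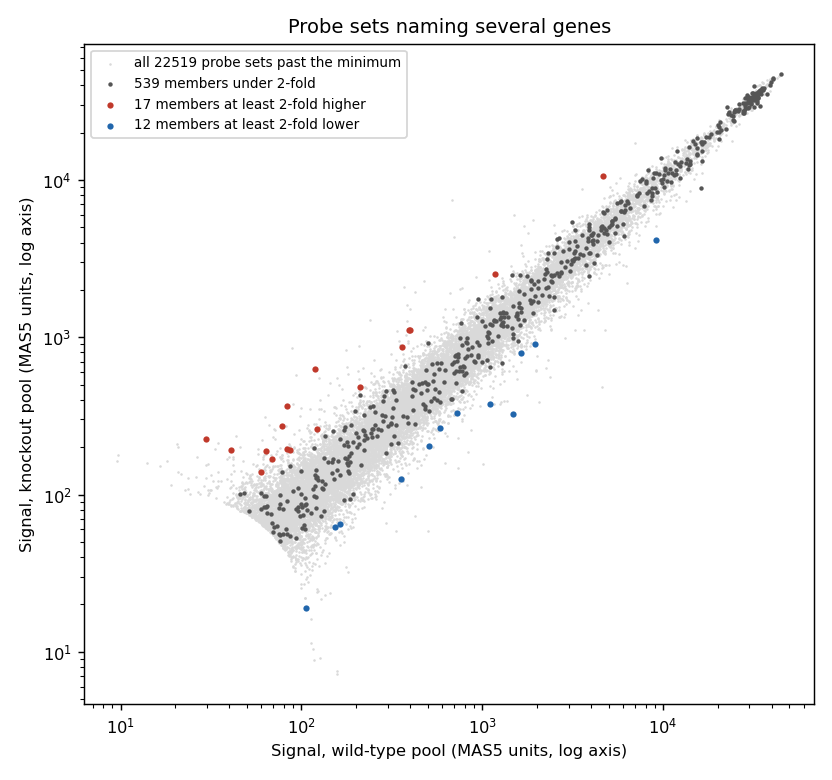
Signal of every probe set past the minimum in the wild-type pool (horizontal, MAS5 units, log axis) and the knockout pool (vertical, log axis), with 22519 probe sets in pale grey, 539 members under 2-fold in dark grey, 17 higher in red and 12 lower in blue. The bright members at the upper right lie close to the diagonal, and most of the coloured points lie at low and middle signal.

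The median log2 ratio of the members was 0.04, beside -0.03 over all probe sets, and 315 of 568 members (55.5%) lay above 0, beside 46.4%. Both medians move with the scaling of the arrays: with loess the members' median was 0.01 and 52.6% lay above 0, beside 0.00 and 50.1% of all probe sets. The only repeat measurement of a gene on these arrays is by other probe sets. Between the 2 brightest single-gene probe sets of a gene, over 5037 genes, the SD of the log2 ratio was 0.37 in the dimmest of 10 groups of genes and 0.18 in the brightest. This probe-set SD is not the spread between mice, which these arrays do not give.

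Where the named genes lie went with how many members differed. At 2-fold stood 2.58% of all probe sets past the minimum. Of 133 members naming neighbours, 10 were higher and 8 lower, which is 13.5%. That count holds some genes more than once: Hba-a2 and Hba-a1, and U2af1l4 and Igflr1, were each named by 2 of these members. Of 61 naming overlapping genes, 4 were higher and 2 lower (9.84%), and of 36 naming genes further apart on 1 chromosome, 0 were higher and 2 lower. Of the 295 members spread over different chromosomes, 3 were higher and 0 lower, which is 1.02%. Signal differed between these classes as well: the median of the mean signal was 514 for neighbours, 318 for overlapping genes and 4356 for different chromosomes, and its part in the counts was not tested apart from the signal classes above.

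**Figure D2:**
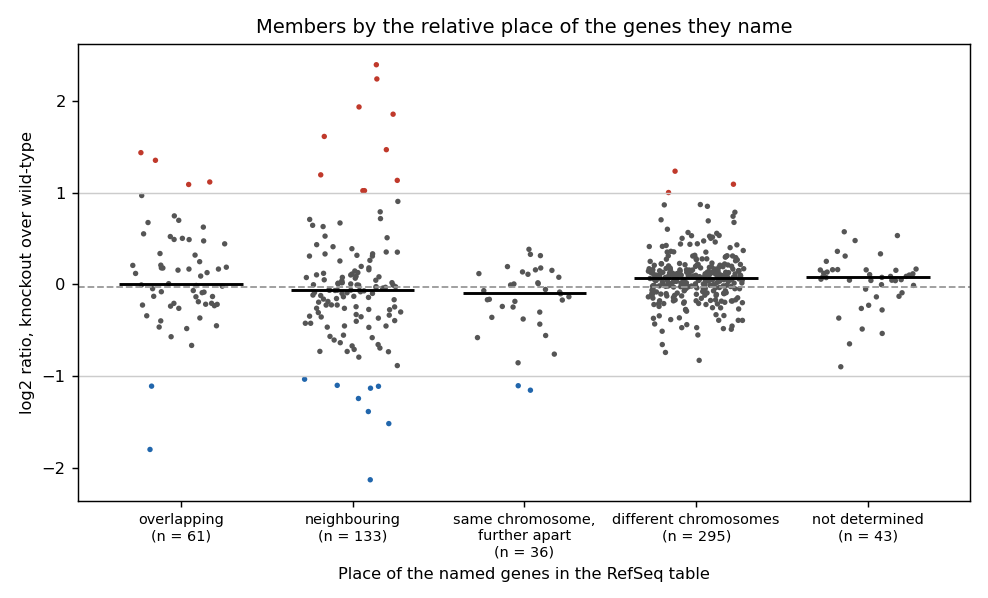
Log2 ratio of each of the 568 members (vertical axis, knockout over wild-type) by the relative place of the genes it names, with medians as black bars, red for at least 2-fold higher and blue for at least 2-fold lower. The dashed line is the median of all probe sets past the minimum, -0.03. Among the 295 members on different chromosomes 3 points are coloured, and among the 133 neighbouring ones 18.

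The lowest ratio of any member belonged to a granzyme pair. 1421227_at names Gzme and Gzmd, serine proteases of cytotoxic granules encoded in 1 cluster. Its signal was 1472 in the wild-type pool against 324 in the knockout pool, a log2 ratio of -2.13. Probe sets that name 1 of these genes alone went the same way: for Gzmd 1420343_at stood at 2061 and 390 (-2.35) and 1420344_x_at at 2373 and 557 (-2.06), and for Gzme 1450171_x_at stood at 840 and 187 (-2.07). All 4 probe sets were thus lower in the knockout pool, by like amounts. Their probes may still share transcripts, which was not checked. The sequences shown above lie before the start sites and do not bear on this. Sorted Treg cells can hold other lymphocytes, and markers of those were measured beside this. Cd8a and Cd8b1, both past the minimum, summed to a signal of 873 in the wild-type pool against 627 in the knockout pool, and their part in the granzyme signal was not tested. Ncr1, the NK cell marker measured, stood at 14.0 and 18.0, under the minimum in both.

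Of 11 members naming interferon-induced genes, 0 were higher and 3 lower at 2-fold, beside 1.54% lower among all probe sets. The ratio was above 0 for 2 of the 11, beside 46.4% of all probe sets, and the median was -0.45. Under the scalings tried the median lay between -0.45 and -0.39, but it was -0.14 with no signal minimum and -0.80 with the minimum at the 75th percentile. The 3 lower ones all name genes of the interferon-inducible Ifi200 cluster, whose proteins sense or bind DNA. 1452348_s_at (Mndal, Ifi211, Ifi205 and Ifi204) stood at 1105 and 376, a ratio of -1.52. Of its genes, Mndal alone is named by 1426906_at, at 3257 and 1108 (-1.54), and by 1452231_x_at, at 3533 and 1484 (-1.24). Ifi204 alone is named by 1419603_at, which had a signal of at most 1.14 in either pool, near the array's floor, whereas 1452349_x_at (Ifi211 and Ifi205), at 294 and 183, had -0.64. A difference of like size was thus measured for Mndal alone, and next to no signal for Ifi204. 1451567_a_at (LOC102641031, LOC100862473, Ifi203-ps and Ifi203) stood at 506 and 204 (-1.24). 1448775_at (LOC100862473, Ifi203-ps and Ifi203) stood at 587 and 265 (-1.10), and Ifi203 alone, by 1442828_at, at 121 and 63.7 (-0.78). Other members of the list were less far from 0. Trim34b and Trim34a, which belong to the TRIM family of ubiquitin ligases, had -0.66 by 1426092_a_at and -0.31 by 1421550_a_at. Tgtp2 and Tgtp1, interferon-induced GTPases, were bright in both pools, at 15309 and 14490 by 1449009_at. The highest were 1431591_s_at (Isg15, a ubiquitin-like protein, and Gm9706), at 200.1 and 245 (0.27), and 1429272_a_at (Gm8221, Apol7c and Apol7a), at 45.8 in the wild-type pool (0.91).

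1429184_at names Gvin1, an interferon-inducible very large GTPase, and its relative Gm4070, which the list did not match. Its signal was 9181 in the wild-type pool against 4182 in the knockout pool, a ratio of -1.13, and no other probe set names either gene. It was the 1 lower member with a mean signal above 2000.

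The remaining lower members named genes of several unrelated kinds. 1441880_x_at and 1426126_a_at name U2af1l4, a splicing factor subunit, and its neighbour Igflr1, a receptor found on T cells. They stood at 1961 and 900 (-1.11) and at 1632 and 789 (-1.03), while U2af1l4 alone, by 1434305_at, stood at 1015 and 942 (-0.11). Both shared probe sets were lower and the probe set of U2af1l4 alone was not at 2-fold, and no probe set names Igflr1 alone past the minimum. 1438466_at (Dnah7c and Dnah7b, heavy chains of the dynein motors of cilia) stood at 354 and 125 (-1.39). 1424762_at (Mfrp and C1qtnf5, overlapping genes) stood at 153 and 62.2 (-1.11). 1430852_at (Nme9, and 1600029I14Rik, which overlaps it) stood at 106 and 19.0 (-1.80), so that its signal in the knockout pool was close to the pseudocount. 

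Zinc finger genes encode DNA-binding proteins, many of which arose by tandem duplication. Of 14 members naming them, 0 were higher and 2 lower at 2-fold, beside 1.04% higher and 1.54% lower among all probe sets. The median was -0.05. 1429712_at (Zfp965, Gm14440, Zfp967, Zfp966, Zfp971, Zfp973 and Gm14288) stood at 725 and 328 (-1.10). 1456179_at (Gm13212 and Zfp982) stood at 163 and 64.5 (-1.15), but the probe sets that name Zfp982 alone disagreed with it and with each other: 1439065_x_at had 0.51, at 159 and 233, and 1459260_at -0.44, at 74.3 and 50.5. The highest of the list was 1438140_a_at (Gm38422 and Zfp64), at 174 and 267 (0.57).

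**Figure D3:**
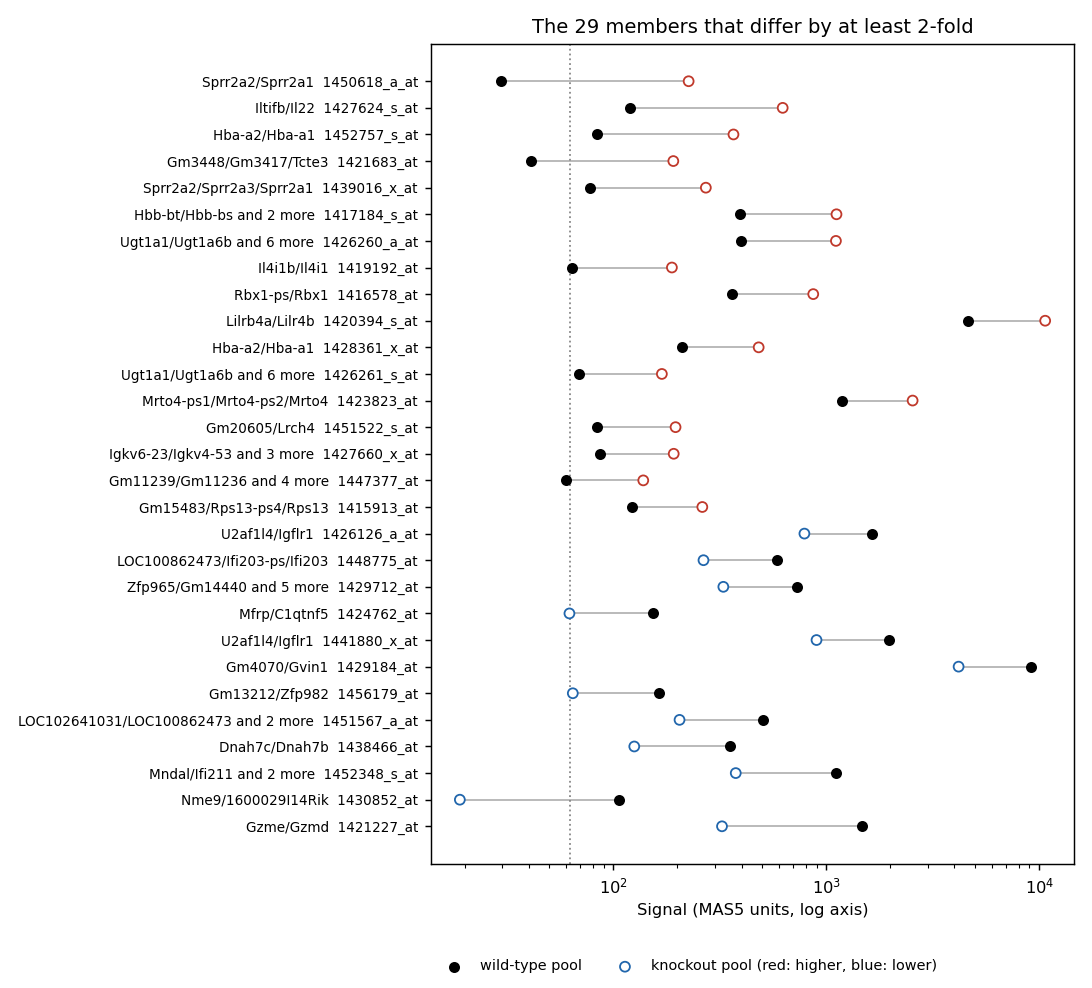
Signals in the wild-type pool (black) and the knockout pool (open, red where higher and blue where lower) of the 29 members that differed by at least 2-fold, on a log axis in MAS5 units, ordered by log2 ratio. The dotted line is the signal minimum of 62.3, under which 5 members lie in 1 pool, 3 of the higher and 2 of the lower.

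For 11 of the 29 the ratio lay inside 2-fold under at least 1 other setting. The higher ones were 1415913_at, 1419192_at, 1426261_s_at, 1427660_x_at, 1428361_x_at, 1447377_at and 1451522_s_at, with values nearest to 0 from 0.71 for 1447377_at to 0.99 for 1428361_x_at. The lower ones were 1424762_at, 1426126_a_at, 1448775_at and 1456179_at, with values from -0.79 for 1424762_at to -0.99 for 1426126_a_at.

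Among the higher members were ones naming cytokine and epithelial genes. 1427624_s_at names Il22, a cytokine that acts on epithelial cells, and its copy Iltifb. It stood at 119 in the wild-type pool against 624 in the knockout pool, a ratio of 2.24, and no probe set names either gene alone. The other 3 members of the cytokine list were near 0 or under 2-fold: 1447917_x_at (Ntan1 and Il2, the growth factor of T cells) stood at 4090 and 4181 (0.03), and the members naming Ccl27a and its copies had 0.33 by 1419188_s_at and -0.13 by 1430375_a_at. 1450618_a_at names Sprr2a2 and Sprr2a1, proteins of the cornified envelope of skin, and stood at 29.7 and 226 (2.40), so that it passed the minimum through the knockout pool alone. 1439016_x_at, which adds Sprr2a3, stood at 77.8 and 272 (1.61), and 1437258_at (Sprr2a2 and Sprr2a1), below the minimum, at 4.83 and 27.7 (1.06). All 3 were higher in the knockout pool. Epithelial markers were measured beside them, on a list chosen after values were seen. 2 of 7 were past the minimum, Krt5 at 44.6 and 81.2 and Cdh1 at 949 and 552, while Krt14 and Ivl, at 8.41 and 17.4 and at 3.40 and 16.9, lay under it. Lor, at 41.9 and 64.9, Krt8, at 32.5 and 3.71, and Krt18, at 40.7 and 32.1, also had means under it. The 7 summed to 1121 in the wild-type pool against 769 in the knockout pool, most of it from Cdh1. Krt5, Krt14, Lor and Ivl were higher in the knockout pool, and Cdh1, Krt8 and Krt18 lower, so the sum does not stand for each marker. The part of these markers in the Sprr2a signal was not tested.

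All 3 members naming haemoglobin genes, whose products carry oxygen in red cells, were higher at 2-fold, beside 1.04% of all probe sets. For Hba-a2 and Hba-a1, 1452757_s_at stood at 83.8 and 366 (1.94) and 1428361_x_at at 210.3 and 481 (1.14), but 1417714_x_at of the same genes lay below the minimum, at 5.14 and 7.17. Hba-a2 alone, by 1427219_at, stood at 100.3 and 77.5 (-0.31). The 4 beta-globin genes Hbb-bt, Hbb-bs, Hbb-b2 and Hbb-b1 share 1417184_s_at, at 393 and 1116 (1.47), while the probe sets of Hbb-b2 alone lay below the minimum, 1427865_at at 30.5 and 39.7. Shared probe sets past the minimum were thus higher, while the single-gene ones had ratios from -0.31 to 0.26. Of 5 red cell markers other than globins, a list chosen after values were seen, 1 was past the minimum, Klf1 at 65.0 and 80.2. Alas2 stood at 6.35 and 1.87, and the 5 summed to 113 and 114. The part of red cells in the haemoglobin signal was not tested.

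Other immune genes were among the higher members. 1420394_s_at names Lilrb4a, an inhibitory receptor of the immunoglobulin superfamily, and its close relative Lilr4b, and stood at 4650 and 10668 (1.20). It was the 1 higher member with a mean signal above 2000, and no other probe set names either gene. The second member of the surface receptor list, 1421571_a_at (Ly6c2 and Ly6c1), stood at 13415 and 12782 (-0.07). 1419192_at (Il4i1b and Il4i1, the latter a secreted amino acid oxidase) stood at 63.7 and 188 (1.35), whereas Il4i1 alone, by 1437612_at and below the minimum, stood at 50.3 and 31.2. 1427660_x_at (Igkv6-23, Igkv4-53, Igkv8-30, Igkj1 and Igkc, segments and constant region of the antibody kappa light chain) stood at 86.2 and 192 (1.02), and 1452417_x_at of the same genes at 59.8 and 103 (0.65). Beside it, the B cell markers Cd79a and Ms4a1 lay under the minimum in both pools, at 3.68 and 25.8 and at 33.7 and 10.1, and the plasma cell markers Jchain and Mzb1 summed to 113 and 123. Under 2-fold, 1425436_x_at (Klra9 and Klra3, lectin-like receptors of NK cells) stood at 199 and 337 (0.72) and 1422188_s_at (Trgv4 and Trgv2, gamma chain segments of the gamma delta T cell receptor) at 2257 and 2699 (0.26).

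The Ugt1a genes encode enzymes that join glucuronic acid to bilirubin and drugs, and are made from 1 locus with separate first exons and common last exons. 3 members name the same 8 of them (Ugt1a1, Ugt1a6b, Ugt1a9, Ugt1a5, Ugt1a7c, Ugt1a10, Ugt1a6a and Ugt1a2). 1426260_a_at stood at 400 and 1110 (1.44), 1426261_s_at at 69.1 and 169 (1.12) and 1424783_a_at at 209.9 and 427 (0.97). All 3 were higher in the knockout pool, and 2 of them at 2-fold, beside 1.04% of all probe sets. Which first exon was used cannot be read from them.

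The other higher members named genes of no common list. 1421683_at (Gm3448, Gm3417 and Tcte3, a testis-expressed dynein light chain) stood at 41.0 and 191 (1.86), while 1421682_a_at, naming the same genes just outside the minimum, stood at 55.4 and 67.4. 1423823_at (Mrto4-ps1, Mrto4-ps2 and Mrto4, a ribosome assembly factor) stood at 1184 and 2543 (1.09) and had no other probe set. 1416578_at (Rbx1-ps and Rbx1, the RING subunit of cullin ubiquitin ligases) stood at 359 and 868 (1.24), but 3 other members naming the same genes had ratios of 0.11 to 0.22, among them the brighter 1448387_at, at 10241 and 11960, and Rbx1 alone, by 1440061_at, had 0.21. 1451522_s_at (Gm20605 and Lrch4) stood at 83.4 and 196 (1.09), but 1424878_at of the same genes at 229.9 and 229 (-0.01). 1447377_at, which names Gm428 and 5 gene models, stood at 59.7 and 138 (1.02).

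Of 105 members naming cytosolic ribosomal proteins, 1 was higher and 0 were lower at 2-fold. This was 0.95%, beside 2.58% of all probe sets and 0.67% of those with a mean signal of 2000 or more. That 1 was 1415913_at (Gm15483, Rps13-ps4 and Rps13), at 122 and 262 (1.0). The other 3 members naming Rps13 had ratios of -0.13 to 0.13 with signals of at least 19877, so it stood apart from them. The median of the list was 0.07 and 75 lay above 0 (71.4%, beside 46.4% of all probe sets). With quantile scaling the median was 0.00 and 50 lay above 0 (47.6%, beside 50.2%), so no direction holds across scalings. The lowest was 1439415_x_at (Gm5963 and Rps21), at 1287 and 683 (-0.90), followed by 1422115_a_at (Rpl13a and Flt3l), at 1574 and 942 (-0.73). The brightest members of all were of this list: 1435873_a_at (Gm11478 and Rpl13a) at 45038 and 47226 (0.07), 1454859_a_at (LOC100862455, LOC100044627 and Rpl23) at 40603 and 44510 (0.13), 1436995_a_at (Gm15772 and Rpl26) at 40344 and 43981 (0.12), 1443843_x_at (Gm5451 and Rpl9) at 39355 and 41838 (0.09) and 1416404_s_at (LOC100862433, Rps16-ps2 and Rps16) at 38961 and 40247 (0.05).

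In the remaining function lists with several members none reached 2-fold except in the splicing list. There the U2af1l4 and Igflr1 pair made 2 of 23 (8.70%, beside 2.58% of all probe sets). Of 6 members on the translation factor list, all lay above 0 under each scaling, beside 46.4% to 51.0% of all probe sets. As deposited, 56.8% of probe sets with a mean signal of 2000 or more lay above 0. Among the 6, 3 name the same genes, Eif3j2 and Eif3j1. Ratios ran from 0.01 for 1453023_at (Ankhd1 and Eif4ebp3) to 0.44 for 1417242_at (Gm5576 and Eif4a3, an RNA helicase of the exon junction complex). Of 7 on the respiratory chain list, 6 lay above 0, beside 46.4% of all probe sets and 56.8% of those with a mean signal of 2000 or more. Among the 7, 2 name the same genes, Ndufb4b, Ndufb4c and Ndufb4. The highest was 0.35 for 1433603_at (Ndufs6b and Ndufs6, of complex I), at 3906 and 4992. The 11 members of the proteasome and ubiquitin list lay between -0.22 and 0.69, the highest being 1428296_at (Usp50 and Polr2l), at 2589 and 4197, which joins a ubiquitin protease gene to a subunit of RNA polymerase II. Of 13 members naming MHC genes, some of whose products present peptides to T cells, 3 lay above 0 (23.1%, beside 46.4% of all probe sets). Their median was -0.06. Some genes count more than once: H2-DMb2 with H2-DMb1, H2-T-ps with H2-T23, and H2-T9 with H2-T22 and H2-T10 were each named by 2 members. The lowest, 1439121_at (H2-T9, H2-T22 and H2-T10), stood at 128 and 72.9 (-0.69), but 1449875_s_at of the same genes stood at 8637 and 7870 (-0.13). The highest, 1431008_at (H2-Q6 and H2-Q8), had 0.06. Among 13 members naming histones, most of whose genes lie in clusters and are near copies, ratios ran from -0.28 to 0.87 with a median of -0.07. Both ends were members with 1 and the same list of 8 H3 genes, 1442051_at at 121 and 96.6 and 1422155_at at 48.4 and 102. The 23 members naming splicing and RNA-binding proteins had a median of -0.02, with 1416336_s_at (Gm14277 and Snrpd1) highest at 0.33. Among 6 naming tubulins or actins, the lowest was 1449682_s_at (Tubb2a-ps2 and Tubb2b), at 192 and 101 (-0.83), and the highest 1423846_x_at (Gm5620 and Tuba1b), at 26343 and 30237 (0.20). Of 26 lists, 23 had a member; Gimap GTPases, cell cycle genes and small GTPases had none. In all 249 members were on a list, 17 of the 29 at 2-fold among them. No member names Foxp3, Il2ra, Ctla4, Stat3, Ifng, Il13 or Spaca6, or the deleted microRNA, so the members do not check the genotype.

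**Figure D4:**
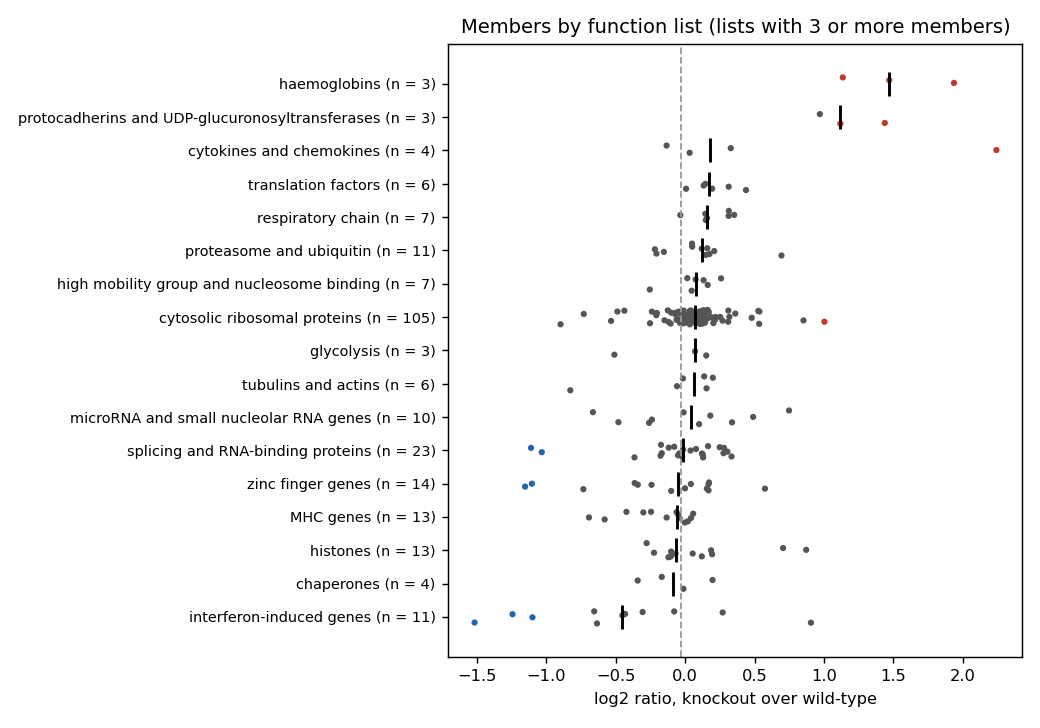
Log2 ratio (horizontal axis, knockout over wild-type) of each member of the function lists with 3 or more members, with medians as black bars, red for at least 2-fold higher and blue for at least 2-fold lower. The dashed line is the median of all probe sets past the minimum, -0.03. The 3 haemoglobin members lie between 1.14 and 1.94, and 9 of 11 interferon-induced members lie below 0.

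Small RNA genes were named by 10 members, 8 of them with an overlapping gene and 2 with genes on different chromosomes. Of the 10, 0 reached 2-fold, beside 2.58% of all probe sets. Standard array labelling reads longer transcripts, so such a signal is not a level of the mature small RNA. The mature sequences of the microRNAs in the 3 microRNA members of largest size are shown because the probe sets carry their names; they are from RefSeq on GRCm38.p6, with the seed (bases 2 to 8) in capitals. No seed was shared among the 10 mature microRNAs of all 9 microRNA genes named.
mmu-miR-675-5p, Mir675, chr7:142577112-142577133, minus strand: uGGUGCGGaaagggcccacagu
mmu-miR-675-3p, Mir675, chr7:142577078-142577099, minus strand: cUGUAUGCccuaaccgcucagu
mmu-miR-5136, Mir5136, chr19:8888709-8888728, minus strand: aUAUGCGAgggaacuacugg
mmu-miR-5130, Mir5130, chr14:102982608-102982631, minus strand: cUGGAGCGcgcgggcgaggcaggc
1448194_a_at (Mir675 and H19, an imprinted long noncoding RNA that holds it) stood at 133 and 78.1 (-0.66). 1429207_at (Mir5136 and 5730408K05Rik) stood at 323 and 460 (0.49), and 1434881_s_at (Mir5130 and Kctd12) at 113 and 76.6 (-0.48). These lie on both sides of 0. The other microRNA members were closer to it. 1428694_at names Mir92-1 and Mir17hg, the host of the miR-17 to miR-92 cluster, and stood at 1000.2 and 1268 (0.34). 1457041_at (Mir3069 and Scarna13) had -0.26, 1439447_x_at (Mir682 and Rpl37a) -0.24 and 1422301_at (Mir692-3, Mir692-1, Mir692-2, Ftl1-ps2 and Ftl1, a ferritin subunit) 0.10. The highest of the 10 was 1455904_at (Snord47 and its host Gas5, a noncoding RNA that accumulates in growth-arrested cells), at 1470 and 2480 (0.75). Gas5 alone, by 1419291_x_at, stood at 17510 and 17055 (-0.04), so the higher value was not seen there.

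Several members can name the same genes, which repeats the measurement. For 110 combinations, with 307 members, the ratios could be compared. In 60 of them all members had 1 sign, and the median range between the lowest and highest ratio was 0.25. The widest was that of Gm5963 and Rps21, from -0.90 to 0.36 over 5 members. Among the 29 members at 2-fold, 17 had another probe set of a shared gene past the minimum. For 12 of these all the others went in the same direction, for 5 at least 1 went the opposite way, and for 12 at least 1 other was also at 2-fold in the same direction. For 2 of those 12, the granzyme member and the one naming Mndal, a probe set outside the 29 was among them, and for the rest the other was itself 1 of the 29. Of the 29, 12 had no second probe set past the minimum.

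A probe set that names 1 of a member's genes alone was past the minimum for 227 members, in 269 pairs of a member and a gene, and 341 members had none. The median absolute difference within a pair was 0.25, beside 0.20 between 2 single-gene probe sets of the same gene. The SD was 0.48 beside 0.36, somewhat wider for pairs with a member. The 2 kinds of pair were not matched in signal, and 1 single-gene probe set could recur beside several members. The part of this in the wider SD was not tested. By place of the genes, the SD was 0.40 for different chromosomes, 0.54 for neighbours and 0.54 for overlapping genes. Of 12 pairs in which the member was at 2-fold, the single-gene probe set went the same way in 8 and was also at 2-fold in 3, those of Gzmd, Gzme and Mndal. In 5 pairs the single-gene probe set was at 2-fold and the member was not, which were picked out after their values were seen. 1448715_x_at (Sgip1, Cog6 and Noct) stood at 24518 and 23885 (-0.04), while Cog6 alone, by 1426216_at, stood at 2481 and 5165 (1.05). 1415716_a_at (Rps27rt and Rps27) stood at 27926 and 27534 (-0.02), while Rps27 alone, by 1460699_at, stood at 796 and 387 (-1.01). 1419682_a_at (Trp53rka and Trp53rkb) had 0.12, while Trp53rkb alone, by 1419683_at, stood at 49.3 and 136 (1.22). For H2-Ob and Tubb2b the member went the same way as the single-gene probe set, at -0.58 against -1.43 for 1422201_at (Gm20506 and H2-Ob) and at -0.83 against -1.07 for 1449682_s_at.

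**Figure D5:**
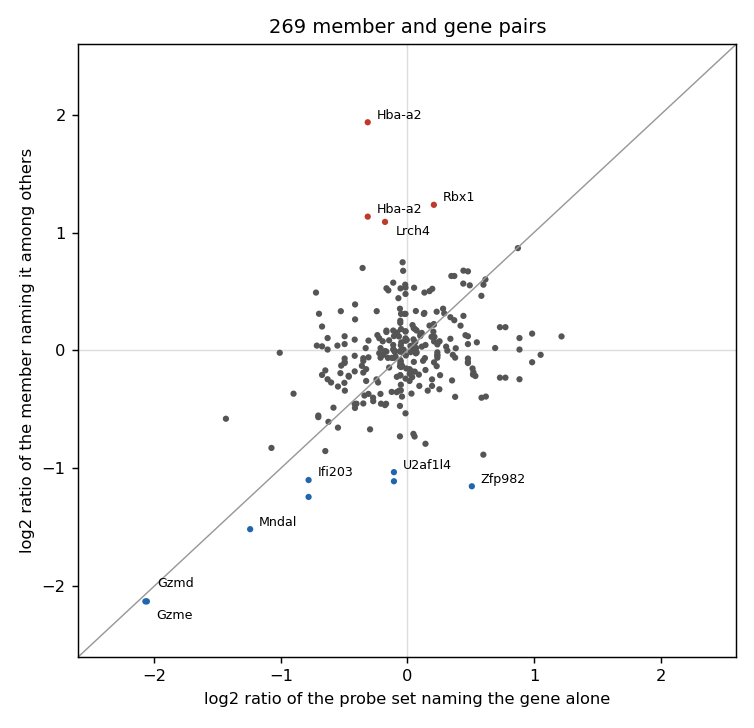
Log2 ratio of a member (vertical axis) against that of the brightest probe set naming 1 of its genes alone (horizontal axis), for 269 pairs, with the line of equality; members at 2-fold are red or blue and carry the gene's name. Gzmd, Gzme and Mndal lie near the line, Hba-a2, Rbx1, Lrch4 and Zfp982 far from it.

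The Treg and T cell markers Foxp3, Il2ra, Ctla4, Ikzf2, Cd4 and Cd3e were past the minimum on these arrays. The minimum is only the median over the array, so passing it does not measure how pure the sorted cells were. Markers of other cell types passed it too, such as Pf4 at 1226 and 1744 and Cd8a at 435 and 295. Foxp3 stood at 1631 in the wild-type pool against 694 in the knockout pool (-1.21), and Il2ra at 15390 and 18551 (0.27). Summed signals of other cell types were 1728 and 2396 for platelets, 204 and 163 for macrophages and 113 and 13.1 for neutrophils, whose 2 markers lay under the minimum. No member listed above names these markers, and their part in the members' ratios was not tested.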

How the data were processed

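RNA of 2 pools was measured on 1-colour Affymetrix mouse genome arrays, 1 array per genotype, from 6 ug of total RNA, per the labels' protocols. The authors deposited log2 values for 45101 probe sets. The submitters' processing notes name MAS5, which subtracts mismatch signal and scales each array, and give no version. As linear signals, both arrays had a mean of 500.0 once 2% was trimmed at either end. The lowest value, a linear 1, is a floor held by 552 wild-type and 473 knockout values and by 0 members. MAS5 ratios of dim probe sets vary widely, and the number of arrays limits the precision. Detection calls were not used here.

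From these values the ratios, counts, medians and differences were computed (Python 3.11.15, pandas 2.3.3, numpy 2.4.6, statsmodels 0.14.6 for loess with a span of 0.3, Biopython 1.88 for global alignment). Of the probe sets, 64 controls were left out. Genes came from the platform annotation, with 34945 probe sets naming 1 gene, 932 several and 9160 none, and were matched by identifier to RefSeq (GRCm38.p6), which changed 0 symbols. No test was made. Counting under each scaling was checked on simulated data with small noise and changes put into bright probe sets alone. No bias that varies with signal was put in, so its removal by loess was not checked, nor were changes in dim probe sets. Protein tables were not used, so the planned protein identity was replaced by that of promoters. The members, lists and markers were chosen with earlier results of these data known. Named were the 10 highest and 10 lowest members, the 5 brightest, up to 2 highest and 2 lowest of each list, the 3 nearest the minimum on each side, each naming a microRNA, and 7 genes of prior interest, with single-gene probe sets only beside a member; the other members at 2-fold were named after their values were seen. Alternatives were 3 scalings, pseudocounts of 1 and of the median signal, dropping the signal minimum or raising it to the 75th percentile, leaving out _x_at or _s_at members, 1 probe set per combination, and folds of 1.5 and 3.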

Additional observations from a re-analysis of the deposited data

How the results depend on the processing

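Of 133 summary values compared across the alternatives, 97 were kept. A count or SD was kept within 1.5 times its main value, and a median if it moved by less than 0.24. A small median could thus change sign and still be kept. Of the 29 members at 2-fold, 18 stayed there in each setting that held them, 11 fell under 2-fold in some and 0 changed sign. The 3 scalings left the counts within 1.5 times. With a pseudocount at the median signal, 10 members were higher, 2 with overlapping genes and 1 with genes further apart reached 2-fold. With no filter, 42 were higher and 39 lower, with 16 overlapping, 44 neighbouring, 10 further apart and 9 on different chromosomes, 16 lists with a member at 2-fold, an interferon median of -0.14 and an SD against single-gene probe sets of 0.77. With the filter at the 75th percentile, 5 were higher and 6 lower, with 1 overlapping, 7 neighbouring and 1 further apart, and the interferon median was -0.80. Without _x_at and _s_at members, 8 were higher, 9 neighbouring ones reached 2-fold and 6 lists had a member there. With 1 probe set per combination, 1 on different chromosomes reached 2-fold. At a fold of 1.5, 38 were higher and 31 lower, with 12 overlapping, 36 neighbouring, 4 further apart, 15 on different chromosomes and 16 lists. At a fold of 3, 5 were higher and 2 lower, with 1 overlapping, 6 neighbouring, 0 further apart, 0 on different chromosomes and 3 lists. Fewer or more probe sets, or a higher or lower bar, are what the filter and fold settings change; for the others the cause was not tested. No paired analysis was possible because each genotype has 1 pooled array and the labels carry no replicate numbers.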
